A study of Solanum virginianum with 2 samples.

Results

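Plants control their own small RNA machinery with small RNAs. DCL1 is the Dicer that cuts miRNA precursors, and Argonaute proteins such as AGO1 and AGO2 hold the finished miRNA and cut the transcripts it pairs with. In Arabidopsis miR162 directs cleavage of the DCL1 transcript, miR168 that of AGO1 and miR403 that of AGO2, while miR390 works with AGO7 on the non-coding TAS3 RNA to start a class of secondary small RNAs. These 4 miRNA families were examined in pistils of 'B3-3', a long purple eggplant, and were picked by the names miR162, miR168, miR390 and miR403. The names took in 22 of the 686 listed small RNA sequences and 1008 of the 18764 pairs in which a small RNA was predicted to match a transcript. Of the 656 partner transcripts of these families, 2 carried a Dicer or Argonaute symbol or annotation, DCL1 and AGO1B.

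The 2 libraries of the series were a small RNA library and a degradome, in which the 5′ ends of cut transcripts are sequenced. Both came from field-grown pistils in which short-styled (S-morph) and long-styled (L-morph) flowers were mixed, at 1 to 3 and 3 to 6 days after budding by the sample labels. The extraction protocol in the labels gives the degradome as 6 pooled samples that also cover days 13 to 15, and the organism field reads Solanum virginianum where the title reads Solanum melongena. There were 135737 listed small RNA reads, and of the predicted pairs 1010, on 666 of 12937 transcripts, had degradome reads at the site (detected pairs). Neither library had a replicate and the morphs were not separated, so no difference between groups was tested and intervals cover counting error only.

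The main forms of the 4 families and the sequence opposite the miR168 guide carried most of their reads, and are printed 5′ to 3′ with the seed (bases 2 to 8) in capitals.
sly-miR162: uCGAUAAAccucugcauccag
nta-miR168d: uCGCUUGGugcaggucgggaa
aly-miR168a-3p_L+1: uCCCGCCUugcaucaacugaau
nta-miR390b: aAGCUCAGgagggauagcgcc
nta-miR390a: aAGCUCAGgagggauagcacc
vvi-miR403a: uUAGAUUCacgcacaaacucg
The miR162, miR168 and miR403 guides began with U, while both miR390 forms began with A. At bases 2 to 8 the miR162 guide seed occurred in 4 listed sequences, that of miR403 in 3, and those of miR168 and miR390 in 2 each, in every case of the own family. The 2 miR390 forms differed at 1 base, A19G from nta-miR390a to nta-miR390b, counted from the 5′ end.

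Of the 4 families miR162 had the most reads, and each family except miR168 was dominated by its guide strand. The miR162 family held 1432 reads, 1.05% of the listed reads (exact Clopper-Pearson 95% interval 1.00 to 1.11%), and ranked 15 of 77 numbered families. The miR168 family held 759 reads (0.559%, 0.520 to 0.600%), the miR390 family 659 reads (0.485%, 0.449 to 0.524%) and the miR403 family 459 reads (0.338%, 0.308 to 0.370%). The intervals of neighbours in this order overlapped only for miR168 and miR390. In all, the families held 3309 reads, or 2.44% of the list, and they ranked 22, 24 and 27 after miR162. Reads outside the listed sequences are not counted, so no share refers to the library in full.

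The sequence sly-miR162 alone had 1363 reads, 95.2% of its family, and its 3 longer forms differed from it at the 3′ end alone. They are printed with the added bases in capitals.
aly-miR162a-3p_R+1: ucgauaaaccucugcauccagU
pde-miR162_R+2: ucgauaaaccucugcauccagAA
nta-miR162a_R+2: ucgauaaaccucugcauccagGG
These forms had 29, 9 and 2 reads in this order. The opposite precursor arm, nta-MIR162a-p5, also had 29 reads. Sequences holding the first 18 bases of the main form (called guide forms here) made up 98.0% of the miR162 reads (97.1 to 98.6%), 92.9% of the miR390 reads (90.6 to 94.7%) and 459 of 459 miR403 reads.

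In the miR168 family the opposite arm had about as many reads as the guide. The 2 guide forms, nta-miR168d with 343 reads and nta-miR168a_R+3 with 18, had 361 reads in all, 47.6% of the family (44.0 to 51.2%), and the 3 sequences of the other arm had 398, led by aly-miR168a-3p_L+1 with 392. There were thus 1.1 reads of the other arm for each guide read, compared with 0.0207 in miR162 and 0.0768 in the miR390 family, where precursor pieces count among the others. The interval of the guide share of miR168 includes equal parts of both arms and lies below the intervals of the other families. The longer guide form ended in 4 bases not in the shorter.
nta-miR168a_R+3: ucgcuuggugcaggucgggaCUCA

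**Figure D1:**
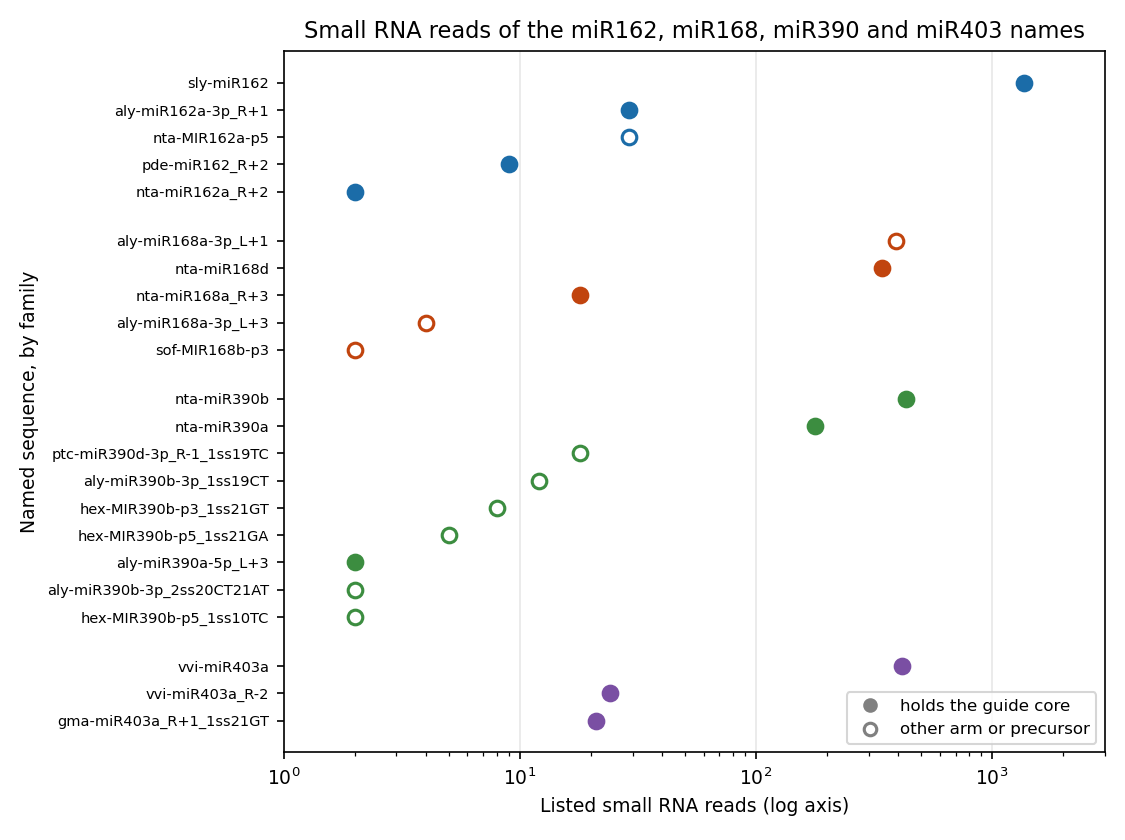
Reads of each of the 22 named sequences in the small RNA library, on a log axis, grouped by family. Filled points hold the first 18 bases of the main guide and open points are the other arm or precursor pieces; for miR168 the open point at 392 reads lies beside the guide at 343, while sly-miR162 stands at 1363.

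The miR390 family had the most names, 9 sequences, and 92.6% of its reads lay in 2 of them. Form b had 433 reads and form a 177, with 2 reads for a guide form that was 3 bases longer at the 5′ end. The 3p arm was listed under 3 names with 18, 12 and 2 reads. A further 3 names, with 8, 5 and 2 reads, overlapped the start of the guide and ran upstream of it, and are shown with the run shared with nta-miR390b in capitals.
hex-MIR390b-p3_1ss21GT: uaagaagaauAAGCUCAGGAu
hex-MIR390b-p5_1ss21GA: uaagaagaauAAGCUCAGGAa
hex-MIR390b-p5_1ss10TC: uaagaagaacAAGCUCAGGAG
In these 3 sequences the shared run was 10, 10 and 11 bases long. The miR403 family had 3 names, vvi-miR403a with 414 reads, a form shorter by 2 bases with 24 and a form with a different 3′ end with 21.

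In the degradome the miR162 site on DCL1 was the strongest of the 4 families. The DCL1 transcript (Sme2.5_02774.1_g00001.1, annotated as endoribonuclease Dicer) had 20 raw reads at nucleotide 3111. The authors put the site in category 0, which in the usual degradome scheme is the highest signal on its transcript. Its normalized reads were also 20, which is taken to mean that no read was shared with another place. Of the 40 transcripts with a category 0 site, 13 had more raw reads than DCL1, the median being 14 and the range 2 to 130. Over all 666 detected transcripts 25 had more. The 4 miR162 guide forms, sly-miR162 and the 3 with added bases printed above, all pointed to nucleotide 3111 and so counted the same 20 reads. No other small RNA in the table was paired with DCL1.

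The miR162 forms differed in how well they were scored on DCL1, not in where they pointed. The authors' alignment score (0 to 4, lower meaning fewer mismatches) was 2 for sly-miR162, 2.5 for the form with U added and 4 for the forms with AA or GG added. The authors' p-values for the same 20 reads ran from 0.0013 for pde-miR162_R+2 and 0.00186 for aly-miR162a-3p_R+1 to 0.00204 for sly-miR162 and 0.0026 for nta-miR162a_R+2. At 0.0013 DCL1 had the lowest authors' p of all detected transcripts, and at the 0.00204 of the most abundant form 4 of the 665 other transcripts had a lower one. The alignment covered 22 nucleotides of DCL1 (3100 to 3121) for the 21 bases of sly-miR162. The cleavage position lay 10 nucleotides before the end of the alignment, as in 50 of the 1010 detected pairs, where 923 had 9.

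AGO1B was the only Argonaute transcript paired with miR168 and had fewer reads. The transcript (Sme2.5_05345.1_g00001.1, annotated as argonaute) had 8 raw and 8 normalized reads at nucleotide 547, for nta-miR168d with an alignment score of 3 over nucleotides 536 to 556. The site was in category 2, which in the same scheme is above the transcript's median but not its maximum. Of the 255 transcripts with a category 2 site, 38 had more raw reads than AGO1B, the median being 3. The authors' p was 0.089, above 0.05, and 6 of the category 2 transcripts had a lower one. Among all 666 detected transcripts 63 had more raw reads than AGO1B and 45 had a lower authors' p. The site lay 9 nucleotides before the end of the alignment. The 24 nt form nta-miR168a_R+3 had no pair in the table.

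**Figure D2:**
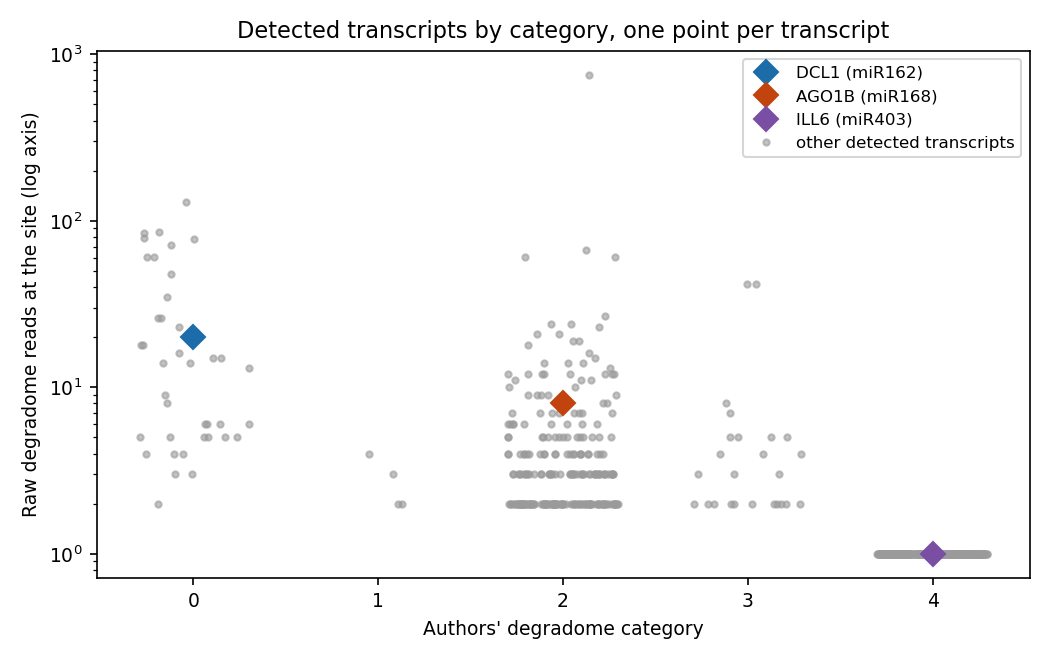
Raw degradome reads (log axis) at the best site of each of the 666 detected transcripts, by the authors' category. Diamonds mark DCL1 with 20 reads in category 0, AGO1B with 8 in category 2 and ILL6 with 1 in category 4.

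Beyond DCL1 and AGO1B these families had a single detected partner. The miR403 form vvi-miR403a_R-2 was paired with ILL6 (Sme2.5_00186.1_g00002.1), named after a family of hydrolases that release auxin from its conjugates, with 1 raw read at nucleotide 920 (category 4, score 4, authors' p 0.818). In all, 4 of 16 miR162 pairs were detected (25.0%, 7.27 to 52.4%), 1 of 6 miR168 pairs (16.7%, 0.421 to 64.1%) and 1 of 17 miR403 pairs (5.88%, 0.149 to 28.7%), beside 5.38% of all predicted pairs. Counted by transcript they were 1 of 9 for miR162, 1 of 5 for miR168 and 1 of 16 for miR403, beside 5.15% of all predicted transcripts. The intervals by pair for miR168 and miR403 include the background, and that of miR162 rests on 4 pairs with the same reads. Under stricter rules the background was 2.45% of pairs in categories 0 to 2, 0.661% with an authors' p of at most 0.05, 3.46% with unshared reads, and 10.3% of the pairs with scores of at most 2.5. The 4 miR162 pairs met the first 3 of these rules, and 2 of them the last. The AGO1B pair met the first and the third, and the ILL6 pair the third.

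The undetected partners of miR162 and miR168 were mostly retroelement or unnamed transcripts. For miR162 they were 8 transcripts at scores of 3 to 4, of which 4 carried retroelement symbols (pol, TY3B-G and TY3B-I, names of retrotransposon polyproteins) and 4 had no symbol. The named one for miR168 was GA1 (Sme2.5_06697.1_g00003.1), annotated as ent-copalyl diphosphate synthase, the enzyme that opens gibberellin synthesis. It was paired with the opposite arm aly-miR168a-3p_L+1 at a score of 2 and was not detected. The remaining 3 miR168 partners had no symbol. Most of all 12937 predicted transcripts were of these kinds too. Among them 2629 (20.3%) carried a retroelement symbol and 6497 had neither symbol nor annotation.

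No Argonaute transcript was paired with miR403. The main form vvi-miR403a, with 90.2% of the family's reads, had no pair in the table at all, and 16 of the 17 miR403 pairs belonged to the form shorter by 2 bases, with scores of 3.5 and 4. They included LHY, a transcription factor of the circadian clock, at a score of 3.5. An AGO2 transcript (Sme2.5_13157.1_g00002.1) was in the table as a predicted partner of 4 other small RNAs, with alignments reaching nucleotide 3065, and none of these pairs was detected. In Arabidopsis the miR403 site lies in the 3′ untranslated region of AGO2; whether the authors' transcript models hold such regions was not given in the sources used here.

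The miR390 family had 969 predicted pairs on 627 transcripts and 0 detected pairs. A count of 0 of 969 allows a share of up to 0.310% if pairs are taken as independent. For the small RNAs outside the 4 families 1004 of 17756 pairs (5.65%) were detected. The pairs belonged mainly to form a, with 585, and form b, with 326, which ranked 6 and 14 of 509 small RNA names by number of pairs, the median name having 7. Another 12 names had at least 326 pairs, and each of them had between 3 and 187 detected pairs. The lowest counts were 3 of 513 for hbr-MIR6482-p5_1ss17AT and 3 of 393 for bdi-MIR398a-p5_1ss4TA. The highest was 187 of 1859 for ptc-MIR6426b-p5. Each of these names had 1 small RNA read, far fewer than forms a and b. Outside miR390 the largest number of pairs without any detected was 70. The partners of both forms overlapped: 312 transcripts were shared, 54.1% of the 577 of form a and 96.6% of the 323 of form b.

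**Figure D3:**
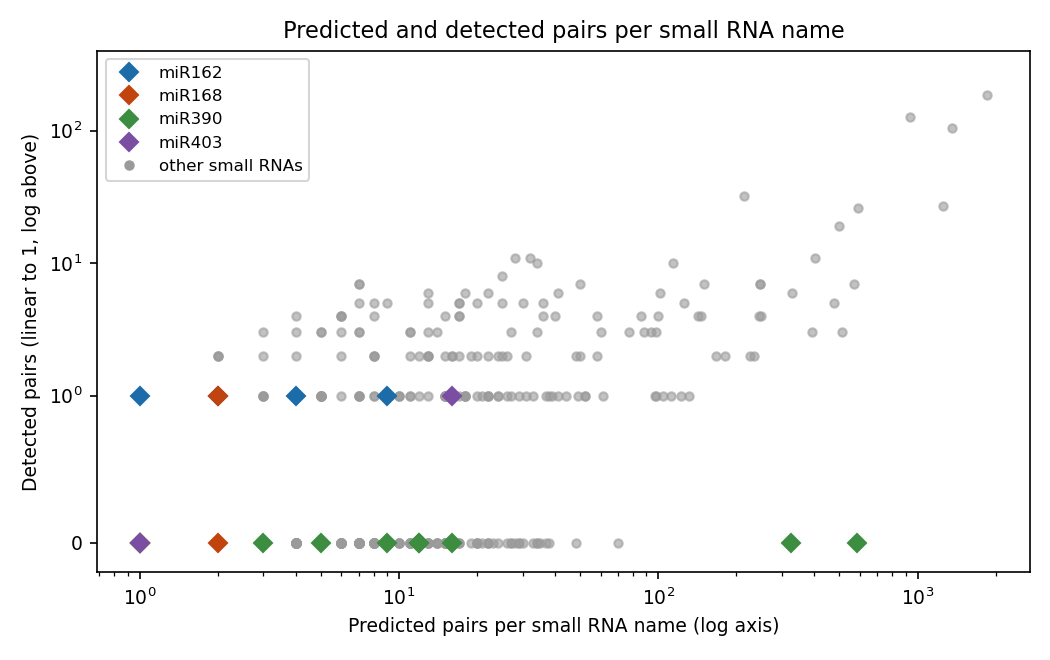
Predicted pairs (log axis) and detected pairs (linear to 1, log above) of each of the 509 small RNA names in the degradome table. The miR390 forms with 585 and 326 predicted pairs lie at 0 detected pairs, whereas the other names with as many pairs as form b lie between 3 and 187.

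Most miR390 partners with a symbol were retroelement transcripts. Of the 627 transcripts, 265 carried a retroelement symbol (42.3%), beside 20.3% of all transcripts in the table: pol on 129, TY3B-G on 54, TY3B-I on 49, Tf2-1 on 16, POL on 15 and Tf2-7 on 2. A further 330 had neither symbol nor annotation, and 32 had another one, most often AtMg00860 (5) and AtMg00750 (2). These locus names were not sorted by kind and were not counted as retroelements. Retroelement transcripts were seldom detected for any small RNA, with 0 of 420 pairs for miR390 and 9 of 3058 (0.294%) for the others, 0.259% over all. Among pairs without symbol or annotation 0 of 498 were detected for miR390 and 289 of 8488 (3.40%) for the others, 3.22% over all. Among pairs on other annotated transcripts 0 of 51 were detected for miR390 and 712 of 6249 (11.4%) for the others, 11.3% over all. The count of 0 of 51 allows a share of up to 5.88% only if the pairs are independent. By transcript the counts were 0 of 32 for miR390 and 457 of 3787 (12.1%) for the others, 12.0% over all. Forms a and b were paired with 19 of the 32, among them all the AtMg transcripts. The rest of the 32 were paired only with the 3p arm or with precursor pieces. Of the miR390 pairs 948 had scores of 3 to 4. Over all small RNAs detection was 9.36% at a score of 2, 5.84% at 3 and 3.69% at 4. Copies of a retroelement are related, and forms a and b often share a site on the same transcript. These pairs are thus not independent of each other, and limits by pair are too low.

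The predicted miR390 sites on retroelement and on unnamed transcripts mostly began at the same phase along the transcript. Positions were counted in steps of 3 from the first nucleotide of the transcript, each transcript and position 1 time. By this count 568 of the 596 sites of forms a and b began at phase 2 (95.3%, 93.3 to 96.9%). Copies of a retroelement are related, so sites on them are not independent and this interval is too narrow. A start at phase 2 held for 254 of 265 sites on retroelement symbols (95.8%) and for 302 of 311 on transcripts without symbol or annotation (97.1%). On other annotated transcripts it held for 12 of 20 (60.0%). These 12 include every site on AtMg00860 and AtMg00750 transcripts, at nucleotides 149, 164, 260, 452, 632, 2822 and 3566. Most of the 12 thus lay on these 2 symbols. For all other small RNAs 29.6% of sites on retroelement symbols began at phase 2. Taken by name, 24 other small RNAs with at least 30 retroelement sites had between 34.7% and 100% of them in their leading phase, with a median of 68.2%, so a single phase was not limited to miR390. In 585 of the 596 sites the alignment covered 20 nucleotides for the 21 bases of the miRNA. Whether a transcript model begins at the first base of a codon was not given in the sources used here, and this count was made after the positions had been seen.

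**Figure D4:**
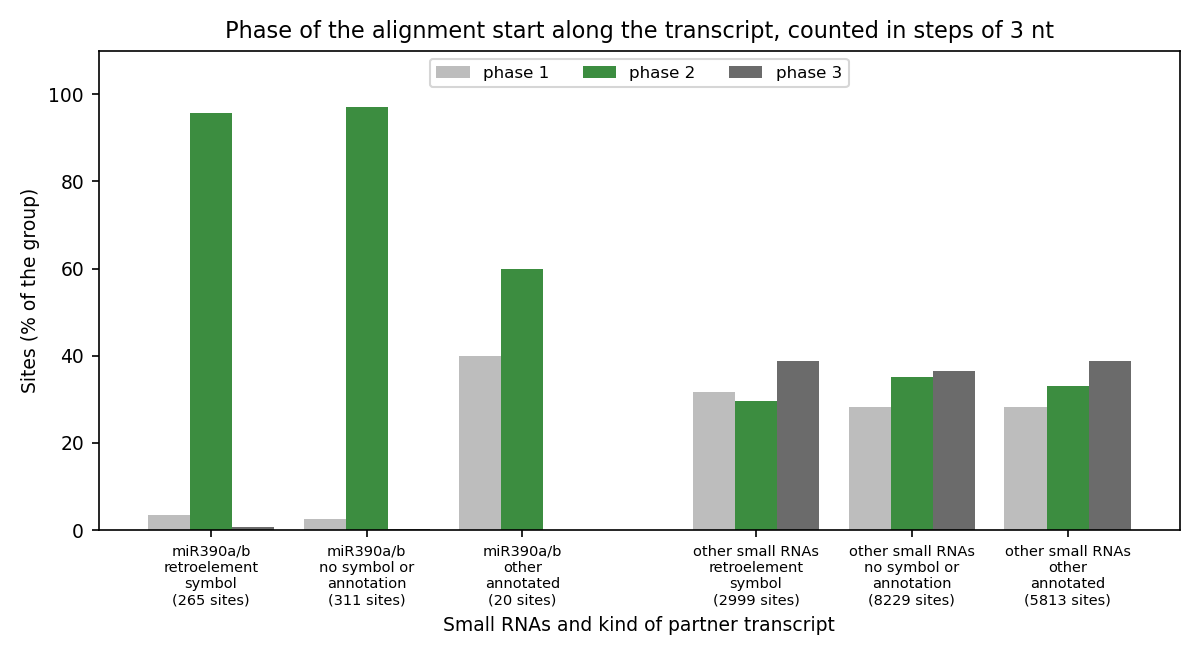
Share of predicted sites by the phase of their first nucleotide along the transcript, for forms a and b of miR390 and for all other small RNAs, by kind of partner transcript. Phase 2 held 95.8% of miR390 sites on retroelement symbols and 97.1% of those without symbol or annotation. The 29.6% for retroelement sites of other small RNAs pools many names with different leading phases. Taken by name, 24 of these had a median of 68.2% in their leading phase (34.7% to 100%).

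The best-scored named partner of miR390 that was no retroelement was BRL3. This transcript (Sme2.5_01077.1_g00012.1), named after a brassinosteroid receptor kinase, was aligned at nucleotides 1630 to 1650 with a score of 2 for form a and 2.5 for form b. The other 5 transcripts at a score of 2 were Tf2-1, TY3B-G and 3 without symbol. Those at 2.5 included a pol and a TY3B-I transcript. Further receptor kinase symbols, chosen after their values had been seen, were PXL1 (best score 3 with form b, nucleotides 550 to 570), TMKL1 (3 with form a) and RPK2 (3.5 with form a, nucleotides 787 to 807). PERK9, chosen likewise, had a score of 2.5, but with the precursor piece hex-MIR390b-p5_1ss10TC, and PERK13 had a score of 4 with 2 names of the 3p arm. Together with BRL3 these were 6 of the 32 partners with another symbol or annotation; partners named only by an Arabidopsis locus were not sorted by function. Of the small RNA pathway, RDR1 (Sme2.5_14714.1_g00001.1), an RNA-dependent RNA polymerase of antiviral defence, was paired with hex-MIR390b-p5_1ss21GA at a score of 3.5. No partner carried the word TAS3 or AGO7, and 0 had a symbol starting with ARF, the auxin response factors that TAS3 small RNAs act on in Arabidopsis. TAS3 is a non-coding RNA, and whether the transcript set holds it was not given in the sources used here.

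Across all small RNAs the table held 32 transcripts of the small RNA pathway, of which 6 had a detected site (18.8%, 7.21 to 36.4%). All 32 had a symbol or annotation and none was a retroelement, and among all such transcripts 12.0% had a detected site, a share within the interval of the list, while over all predicted transcripts it was 5.15%. They comprised 16 transcripts with a Dicer or Argonaute symbol or annotation, 3 of them detected, and 16 others, again with 3 detected. Of the first 3, 1 had an Argonaute symbol but an annotation naming another protein. DCL1 and AGO1B were the only ones of the 6 whose reads were not shared with other places. Among the Dicers, DCL3A, whose counterpart in Arabidopsis makes small RNAs of DNA methylation, was paired at a score of 1.5 with a small RNA of 1 read (ptc-MIR6426b-p5) that had 1859 pairs in all, and DCL2A at 3.5 with the same one. Neither was detected, nor was the fourth Dicer transcript, Sme2.5_00236.1_g00024.1.

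The other detected transcript with an Argonaute symbol carried 2 different names, and which of them is right was not tested. Sme2.5_02977.1_g00006.1 had the symbol AGO4A, an Argonaute of DNA methylation, and the annotation homeobox-leucine zipper protein, and was paired with 4 forms of miR166. It had 6 raw reads at nucleotide 1294 for 3 of these forms, in category 2, with 1.58 normalized reads (authors' p 0.0699 to 0.0983), and 1 raw read at nucleotide 1295 for the fourth. Of the 7 transcripts with an AGO4 or AGO4A symbol, 5 had an annotation naming another protein (homeobox-leucine zipper protein or primary-amine oxidase). Only the transcript described above, 1 of the 7, was detected, beside 12.0% of all annotated transcripts without a retroelement symbol. The 2 AGO16 transcripts, AGO9 and AGO2 were not detected.

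Of the pathway transcripts outside Dicer and Argonaute, NRPD2b and 2 SGS3 transcripts were detected. NRPD2b (Sme2.5_05256.1_g00002.1) was named after a subunit of the RNA polymerases of RNA-directed DNA methylation but annotated as DNA-directed RNA polymerase II subunit B. It had 15 raw and 7.5 normalized reads at nucleotide 443 for 4 forms of miR396 (category 0, authors' p 0.0039 to 0.0295). The GRF4 transcript Sme2.5_00130.1_g00023.1, a growth-regulating factor, was listed with the same 15 raw and 7.5 normalized reads for 3 of these forms. SGS3, a partner of the RNA-dependent RNA polymerase that makes secondary small RNAs, had 5 raw and 2.5 normalized reads on each of 2 transcripts, at nucleotide 570 of Sme2.5_05936.1_g00004.1 and nucleotide 1740 of Sme2.5_07718.1_g00003.1 (category 2, authors' p 0.686). The small RNA named for both, PC-3p-2658491_1, had 1 read. RDR5, another RNA-dependent RNA polymerase, and DRM2, a DNA methyltransferase, were not detected at best scores of 1.5 and 2.5. The remaining undetected transcripts of the list (RDR1, NRPD2a, SDE3 and SGS3 with 2 each, and NRPD2b, HST1 and WEX with 1 each) had best scores of 3.5 or 4. Transcript levels were not measured, so uncut and scarce transcripts cannot be told apart.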

How the data were processed

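Per the labels' protocols, 1 small RNA library (Illumina TruSeq small RNA kit) and 1 degradome library (method of German and colleagues) were made from mixed pistils. Programs that named and counted small RNAs, predicted targets and set categories, and the transcript build, are not given in the sources used here. Per the file headers, the small RNA table held read counts per sequence. For each predicted pair the authors gave an alignment score, and for each detected pair raw degradome read counts, normalized reads and TPB (both signal values), a p-value and a category from 0 to 4. The deposited normalized reads were lower than the raw reads in 360 of 1010 detected pairs and were taken as shared among matching places, though no header says so; deposited TPB was 105.324 for each normalized read. All 510 category 4 pairs had 1 raw read.

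Families were found by name. Guide forms hold the first 18 bases of the main form. Retroelement transcripts are those with the symbols pol, POL, TY3B-G, TY3B-I or Tf2 with a number. The pathway list matched symbol starts and annotation words; SE was matched whole, since 8 symbols beginning with these letters are unrelated. The members and lists were chosen with earlier results of these data known. Named by rule were all detected pairs and all Dicer and Argonaute pairs of the 4 families. The rule also took the 10 miR390 partners of lowest score, and pathway transcripts detected or among the 10 lowest scores. GA1, LHY, GRF4, the AtMg symbols, the further receptor kinases and the remaining pathway transcripts were named outside this rule, with their values known. The 2 libraries formed a group each, so no p-value was computed. Alternatives were other read totals and stricter rules on score, category, p and shared reads. Shares carry exact Clopper-Pearson 95% intervals, and the limit for a count of 0 is 3 counts of the total. Without molecular identifiers reads are no independent molecules, so intervals cover counting error only. Interval coverage and name matching were tested on simulated data. SciPy 1.17.1 gave the intervals and Matplotlib 3.10.9 the plots, under Python 3.11.15 with pandas 2.3.3.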

Additional observations from a re-analysis of the deposited data

How the results depend on the processing

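The stricter rules could not change the count of 0 detected miR390 pairs, since they only remove pairs, and the single alternative for DCL1 (20 reads) and AGO1B (8 reads), normalized reads, gave the same values; neither bears on stability. Shares of listed reads moved with the total: with only sequences of 20 to 22 nt they were 1.29% for miR162, 0.669% for miR168, 0.597% for miR390 and 0.395% for miR403, and without the names miR2911, miR2916, miR1310 and miR6300 they were 1.35%, 0.715%, 0.621% and 0.432% in that order. The order of the families was unchanged in both. miR162 had 2 detected pairs at scores of at most 2.5, and 1 with each transcript counted once. miR168 had 0 with the authors' p at most 0.05 and 0 at scores of at most 2.5, and miR403 had 0 under both and 0 in categories 0 to 2. Detected pathway transcripts, 6 in all, numbered 2 (DCL1 and NRPD2b) with the authors' p at most 0.05 and 2 (DCL1 and AGO1B) without shared reads. They numbered 3 for Dicer and Argonaute alone, and 5 without transcripts annotated as another protein, an alternative chosen after seeing the data. That alternative kept NRPD2b, annotated as DNA-directed RNA polymerase II subunit B. Each alternative on pairs or transcripts counts fewer pairs by construction. With 1 library of each kind, no replicate could be left out. No paired analysis was possible because each group has a single library and no test was made.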
